A study of Homo sapiens with 24 samples.

Results

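The 9 genes described here encode the enzymes that convert squalene to cholesterol: SQLE, LSS, CYP51A1, MSMO1, NSDHL, HSD17B7, EBP, SC5D and DHCR7. They were taken by symbol, with no measured value in the rule, from the 26645 gene entries of an RNA-seq count table, and 9 of 9 were found and tested. The choice of these genes was made with earlier results of these data known. Libraries came from MDA-MB-468 (MB468), an established line of metastatic triple-negative breast cancer that stops proliferating when methionine (Met) is replaced by its precursor homocysteine (Hcy), and from MDA-MB-468res-R8 (MB468res-R8), a derivative that proliferates in Hcy. Both lines were collected untreated in medium with 100 µM Met (Met+, 0 h) and at 0.5, 2 and 12 h after a switch to medium with 370 µM DL-homocysteine and no Met (Met-Hcy+), with 3 libraries in each of 8 groups and 24 in all. All groups shared the same base medium with dialyzed serum, vitamin B12, glutamine and cysteine. MB468res-R8 is 1 revertant clone, obtained by long culture of MB468 in Hcy, so a difference between the lines may belong to that clone. No group was kept in Met+ for 0.5, 2 or 12 h after a medium change. Met withdrawal, Hcy addition and time after the medium change therefore cannot be told apart at any of these times.

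Cholesterol is built in the endoplasmic reticulum from acetyl-CoA by way of mevalonate and squalene. Squalene epoxidase (SQLE) adds oxygen to squalene and lanosterol synthase (LSS) closes the rings, after which the remaining enzymes remove methyl groups and move or reduce double bonds. The genes are known targets of SREBP2, a membrane-bound transcription factor that is released when sterols in the endoplasmic reticulum are low and held back by INSIG proteins when they are high. Met is the precursor of S-adenosylmethionine, the methyl donor for that part of phosphatidylcholine that is made from phosphatidylethanolamine.

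On GRCh38 (GENCODE annotation) the genes lie apart from each other: LSS on chromosome 21 (46188141 to 46228824, minus strand), CYP51A1 on 7 (92084987 to 92134803, minus strand) and MSMO1 on 4 (165327667 to 165343164). NSDHL lies on X at 152830967 to 152869729 and EBP on X at 48521799 to 48528716, HSD17B7 on 1 (162790702 to 162812823), SC5D on 11 at 121292681 to 121313410 and DHCR7 on 11 at 71428193 to 71452868 (minus strand). Counts are over whole genes, exons of both coding and untranslated parts included. The library kit does not mark strand, and exons of CYP51A1 share 108 bases with AKAP9 (770 to 3169 counts) and 138 bases with CYP51A1-AS1 (0 to 5 counts) on the opposite strand, so reads from these stretches cannot be assigned. The annotation used here holds 5 further genes without a symbol, matched to no entry of the count table, that share 2844 and 2827 exon bases with CYP51A1 and 644 with EBP on the same strand, and 448 and 122 with LSS on the opposite strand. The pseudogene HSD17B7P2 had 0 to 6 counts in the 24 libraries.

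RefSeq promoter windows (GRCh38.p14) were at hand for 8 of the 9 genes, in 10 entries, and the 250 bases before each start were searched on both strands for TCACNNCA, a form of the sterol regulatory element (reverse TGNNGTGA), and for CCAAT, the box bound by NF-Y (reverse ATTGG). The 3 windows below belong to MSMO1, with the largest fall at 12 h, HSD17B7, and NSDHL, with the smallest fall. HSD17B7 is shown because its 12 h response differed more than 2-fold between the lines by point estimate. The same held for LSS, which differed most, and for MSMO1 and SQLE. Capitals mark the matches, each sequence runs 5′ to 3′ on the plus strand and stops before the first annotated transcribed base, and the windows are chr4:165327419-165327666, chr1:162790452-162790701 and chrX:152830813-152830966.
MSMO1: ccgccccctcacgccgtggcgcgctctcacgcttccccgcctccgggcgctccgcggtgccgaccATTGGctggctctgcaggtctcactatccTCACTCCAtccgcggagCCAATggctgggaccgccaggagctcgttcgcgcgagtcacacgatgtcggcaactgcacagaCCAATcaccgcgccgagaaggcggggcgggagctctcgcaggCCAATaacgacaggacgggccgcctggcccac
HSD17B7: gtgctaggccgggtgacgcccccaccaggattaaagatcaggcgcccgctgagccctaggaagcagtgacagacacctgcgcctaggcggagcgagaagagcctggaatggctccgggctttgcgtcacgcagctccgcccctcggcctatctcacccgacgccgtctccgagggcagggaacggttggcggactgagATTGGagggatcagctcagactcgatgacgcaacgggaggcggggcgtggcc
NSDHL: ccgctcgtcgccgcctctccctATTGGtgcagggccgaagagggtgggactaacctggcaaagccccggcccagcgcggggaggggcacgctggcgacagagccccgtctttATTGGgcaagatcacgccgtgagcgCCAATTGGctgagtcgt
TCACNNCA was found in 1 of the 10 entries, that of MSMO1, where TCACTCCA ran from position -156 to -149 relative to the start, and in 10.4% of all 35116 RefSeq windows of this length. CCAAT was found in 8 of the 10 entries against 32% of all windows. The SC5D entries overlap, and their matches (at -56 and at -137) are the same site, counted in each. MSMO1 held 4 CCAAT matches and HSD17B7 1. NSDHL held 5 over its 250 bases, 4 of them in the stretch shown, where a pair overlaps as CCAATTGG. The CYP51A1 window and the second of the DHCR7 windows held neither motif. The matches are letters in these windows and not tested sites.

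The deposited libraries held between 11713037 and 36402932 gene counts, with a median of 20452797. By group, the lowest median total was that of MB468 at 2 h, 17380356, and the highest that of MB468 at 12 h, 33984223. The epithelial markers EPCAM, CDH1, KRT8, KRT18, KRT19, KRT5, KRT17 and EGFR had group means of 6809 to 71258 normalized counts at 0 h. PGR, PTPRC, COL1A2 and ADIPOQ were at or near 0, while ERBB2 (1911 in MB468, 1921 in MB468res-R8), ESR1 (417 and 237), COL1A1 (764 and 1488) and PECAM1 (28.8 and 45.5) were detected. MB468 at 2 h replicate 2 stood apart with 8251 counts of RN7SK, an RNA without a poly(A) tail, against at most 357 in the other 23 libraries, and results that change without it are named below. In all that follows, normalized counts are gene counts scaled by edgeR's TMM method to the average library. A gene counts as called when its p from edgeR's quasi-likelihood test, adjusted over 14741 genes by the method of Benjamini and Hochberg, lies under 0.05. Nothing in the labels says that the 3 libraries of a group are separate cultures, so the p-values measure the spread between these libraries, which may be technical. The libraries are bulk, so fewer expressing cells and less RNA per cell cannot be told apart.

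At 12 h in Met-Hcy+, RNA of the 9 enzymes was lower in both lines, and more so in MB468. All 9 enzymes were called lower in MB468 (34.7% of all genes were called lower there) and 9 of 9 in MB468res-R8 (31.1% of all genes). In MB468, 7 of the 9 were at least 2-fold lower (8.46% of all genes), NSDHL and SC5D being the exceptions. In MB468res-R8 this held for 1, MSMO1 (8.32% of all genes). With each library left out in turn, the log2 fold change of MSMO1 in MB468res-R8 ran from -1.12 to -0.99, the latter short of 2-fold. The remaining level at 12 h ran from 22.9% of the 0 h mean for MSMO1 to 69.4% for NSDHL in MB468, with a median of 37.7%, and from 48.0% to 87.5% for the same genes in MB468res-R8, with a median of 67.4%. Every 12 h library lay below every library of its line at 0, 0.5 and 2 h for 9 of 9 genes, in each line. For the 0 h comparison alone, groups that did not overlap in this direction were found for 36.4% of all genes in MB468 and 32.7% in MB468res-R8.

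**Figure D1:**
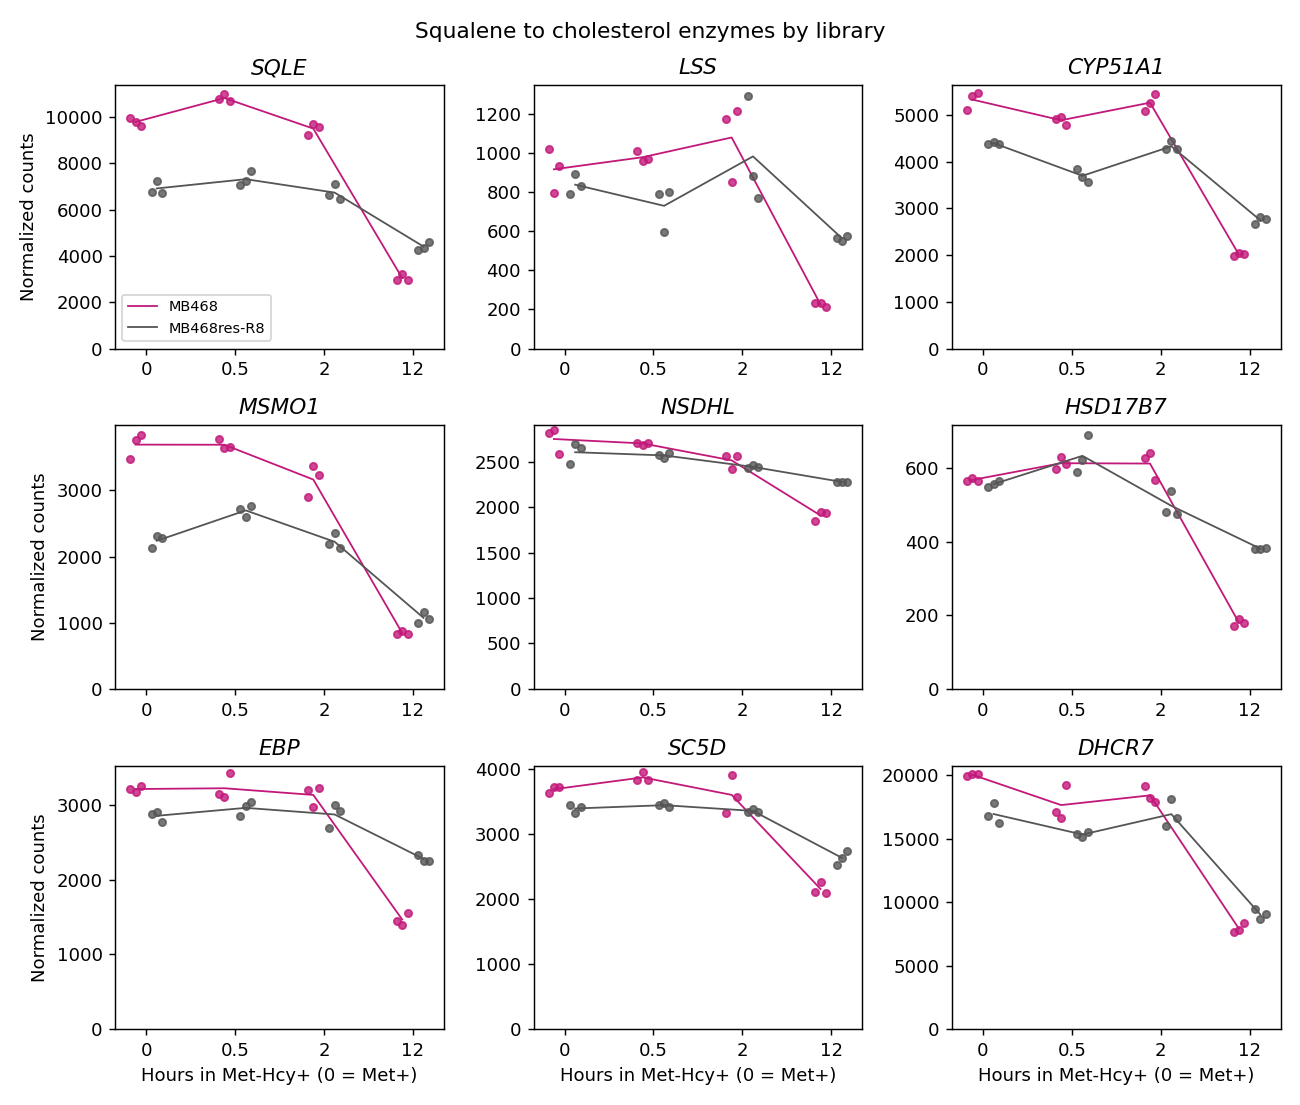
Normalized counts of the 9 enzymes in each of the 24 libraries, with time in Met-Hcy+ on the x axis (0 h is Met+, categories not to scale), MB468 in magenta, MB468res-R8 in gray, a point for each library and a line through the group means. For 9 of 9 enzymes the MB468 points lie above or among the MB468res-R8 points at 0 h and below them at 12 h.

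SQLE lies on chromosome 8 (124998497 to 125022283) and makes the epoxide of squalene, an oxygen-dependent control point of the pathway. It had 9969.7, 9784 and 9618 normalized counts in the MB468 libraries at 0 h and 2949, 3236 and 2955 at 12 h. In MB468res-R8 it had 6767, 7255 and 6727 at 0 h and 4274, 4364 and 4581 at 12 h. The 4 groups did not overlap, and the line with more SQLE at 0 h had less at 12 h. The log2 fold change was -1.69 (SE 0.0436, adjusted p = 4.45e-30, edgeR) in MB468 and -0.65 (SE 0.0431, adjusted p = 1.95e-16, edgeR) in MB468res-R8.

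LSS, the cyclase that turns the epoxide into lanosterol, had the largest standard errors of the 9. Its MB468 libraries had 1023, 797 and 933 normalized counts at 0 h and 235, 232 and 210.4 at 12 h. The MB468res-R8 libraries had 791, 892 and 834 at 0 h and 568, 552 and 575 at 12 h. The lines overlapped at 0 h and lay far apart at 12 h, where MB468res-R8 kept 67.4% of its 0 h level and MB468 24.6%. The log2 fold changes were -2.02 (SE 0.181, adjusted p = 1.50e-08, edgeR) and -0.57 (SE 0.169, adjusted p = 0.00792, edgeR).

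CYP51A1, the cytochrome P450 that takes the first methyl group from lanosterol, had 5109, 5407 and 5465 normalized counts in MB468 at 0 h and 1971, 2035 and 2024 at 12 h. MB468res-R8 had 4382, 4419 and 4385 at 0 h and 2655, 2819.6 and 2762 at 12 h. Each line's groups were tight and separate. The log2 fold change was -1.41 (SE 0.0402, adjusted p = 1.11e-28, edgeR) in MB468 and -0.68 (SE 0.0400, adjusted p = 5.41e-18, edgeR) in MB468res-R8.

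MSMO1, NSDHL and HSD17B7 act in turn to remove the next methyl groups, as the oxidase, the decarboxylating dehydrogenase and the ketoreductase of a complex on the endoplasmic reticulum. MSMO1 had the largest fall of the 9 in both lines. Its MB468 libraries had 3481, 3764 and 3835 normalized counts at 0 h and 825, 878 and 834 at 12 h, which is -2.13 (SE 0.0548, adjusted p = 3.80e-30, edgeR) on the log2 scale. MB468res-R8 had 2137, 2304 and 2276 at 0 h and 1001, 1159 and 1062 at 12 h, or -1.06 (SE 0.0556, adjusted p = 1.48e-19, edgeR).

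NSDHL, the next enzyme of the same complex, had the smallest fall in both lines. It went from 2819, 2852 and 2583 normalized counts in MB468 at 0 h to 1844, 1943 and 1941 at 12 h, with a log2 fold change of -0.53 (SE 0.0423, adjusted p = 1.95e-14, edgeR). In MB468res-R8 it went from 2477, 2691 and 2648 to 2274, 2279.8 and 2283, with a log2 fold change of -0.19 (SE 0.0426, adjusted p = 0.000168, edgeR). The latter call was lost with library sizes taken from the spike-in RNAs (adjusted p = 0.302, edgeR).

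HSD17B7, the third enzyme of the complex, had 565, 573 and 565 normalized counts in MB468 at 0 h and 169.8, 191 and 179 at 12 h. MB468res-R8 had 549, 557 and 564 at 0 h and 381, 379 and 383 at 12 h. The group means were 568 in MB468 and 556 in MB468res-R8 at 0 h, and at 12 h MB468res-R8 had 2.13-fold more. The log2 fold changes were -1.67 (SE 0.0758, adjusted p = 4.66e-22, edgeR) and -0.54 (SE 0.0719, adjusted p = 1.97e-08, edgeR). The 3 enzymes of the complex therefore held the largest and the smallest fall of the pathway, with HSD17B7 between them.

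EBP, the sterol isomerase that moves a ring double bond and is also known as the emopamil-binding protein, had 3211, 3167 and 3255 normalized counts in MB468 at 0 h and 1447, 1395 and 1560.0 at 12 h. In MB468res-R8 it had 2883, 2911 and 2765 and 2330.0, 2255 and 2248. The fall was more than 2-fold in MB468 (-1.13 (SE 0.0479, adjusted p = 5.02e-23, edgeR)) and small in MB468res-R8 (-0.33 (SE 0.0475, adjusted p = 1.57e-07, edgeR)).

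SC5D, the desaturase that makes 7-dehydrocholesterol, had 3631, 3721 and 3728 normalized counts in MB468 at 0 h and 2117, 2266 and 2092 at 12 h. MB468res-R8 had 3444, 3325 and 3423 at 0 h and 2530.3, 2634 and 2751 at 12 h. After NSDHL this was the smallest fall in MB468, with a log2 fold change of -0.78 (SE 0.0444, adjusted p = 6.85e-19, edgeR) there and -0.37 (SE 0.0446, adjusted p = 3.42e-09, edgeR) in MB468res-R8.

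DHCR7, which reduces 7-dehydrocholesterol to cholesterol, had 19882, 20107 and 20076 normalized counts in MB468 at 0 h and 7609, 7788 and 8334 at 12 h. In MB468res-R8 the libraries had 16753, 17828 and 16199 at 0 h and 9421, 8649 and 9029 at 12 h. Of the 9 enzymes it was the most alike between the lines in relative terms, its log2 fall in MB468res-R8 (-0.91 (SE 0.0481, adjusted p = 2.85e-18, edgeR)) being 67.6% of that in MB468 (-1.34 (SE 0.0483, adjusted p = 9.90e-24, edgeR)). For the other 8 enzymes that share ran from 28.0% for LSS to 49.8% for MSMO1. As a result the order of the falls differed: DHCR7 ranked 6 of 9 in MB468 and 2 in MB468res-R8, LSS ranked 2 and 5, and MSMO1 and NSDHL ranked 1 and 9 in both.

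The comparison of the lines addressed whether the Met-dependent and the Met-independent cells differ in this pathway. In Met+ medium most of the enzymes were higher in MB468. MB468res-R8 had the lower mean for 9 of 9 genes and was called lower for 6 (27.1% of all genes were called lower). The differences were small: -0.72 for MSMO1, -0.50 for SQLE, -0.28 for CYP51A1, -0.24 for DHCR7, -0.17 for EBP and -0.12 for SC5D on the log2 scale (adjusted p from 2.05e-15 to 0.0200, edgeR). SC5D was not called without MB468 at 0 h replicate 2 (adjusted p = 0.0615, edgeR) or without MB468res-R8 at 0 h replicate 2 (0.0832). LSS (-0.13, 95% interval -0.47 to 0.22), NSDHL (-0.08, -0.17 to 0.00) and HSD17B7 (-0.03, -0.17 to 0.11) were not called, NSDHL being called lower without MB468 at 0 h replicate 3 (adjusted p = 0.0109, edgeR). With spike-in totals as library sizes 9 of 9 were called lower, these 3 with adjusted p from 0.00399 to 0.0368 (edgeR). The libraries of the lines did not overlap for 7 of the 9 (30.4% of all genes in this direction).

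After 12 h in Met-Hcy+ the order was the opposite. MB468res-R8 was called higher for 9 of 9 enzymes (33.9% of all genes were called higher), and its 3 libraries lay above the 3 of MB468 for 9 of 9 (34.8% of all genes). The log2 difference was 1.33 for LSS and 1.09 for HSD17B7, both more than 2-fold by point estimate. It was 0.63 for EBP, 0.53 for SQLE, 0.45 for CYP51A1 and 0.35 for MSMO1. It was smallest for SC5D (0.29), NSDHL (0.26) and DHCR7 (0.19, adjusted p = 0.000569, edgeR). These 9 include the 6 genes called lower in MB468res-R8 at 0 h. The share of all genes called lower at 0 h and higher at 12 h was not counted. With spike-in totals as library sizes, NSDHL (0.20), SC5D (0.24) and DHCR7 (0.14) lost the call at 12 h but stayed above 0. That scaling shifts all genes, whose median becomes -0.31 at 0 h and -0.11 at 12 h.

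The contrast of the 2 responses, MB468res-R8 minus MB468, was positive and called for 9 of 9 enzymes at 12 h (26.2% of all genes were called in this direction). It was largest for LSS, at 1.46 (SE 0.248, adjusted p = 7.18e-05, edgeR), followed by HSD17B7 at 1.12 (SE 0.105, adjusted p = 4.94e-12, edgeR), MSMO1 at 1.07 (SE 0.0777, adjusted p = 4.79e-15, edgeR) and SQLE at 1.04 (SE 0.0607, adjusted p = 7.33e-18, edgeR). By point estimate, these 4 enzymes thus fell at least 2-fold more in MB468 than in MB468res-R8. The lower limits of their intervals fell short of 2-fold, at 0.93 for LSS and 0.91 for HSD17B7, MSMO1 and SQLE on the log2 scale. The contrast was 0.80 for EBP, 0.73 for CYP51A1, 0.43 for DHCR7, 0.41 for SC5D and 0.34 for NSDHL (adjusted p from 3.03e-14 to 6.23e-06, edgeR). With each library of the groups left out in turn, 9 of 9 were called in every case, here and in the 12 h response of each line.

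**Figure D2:**
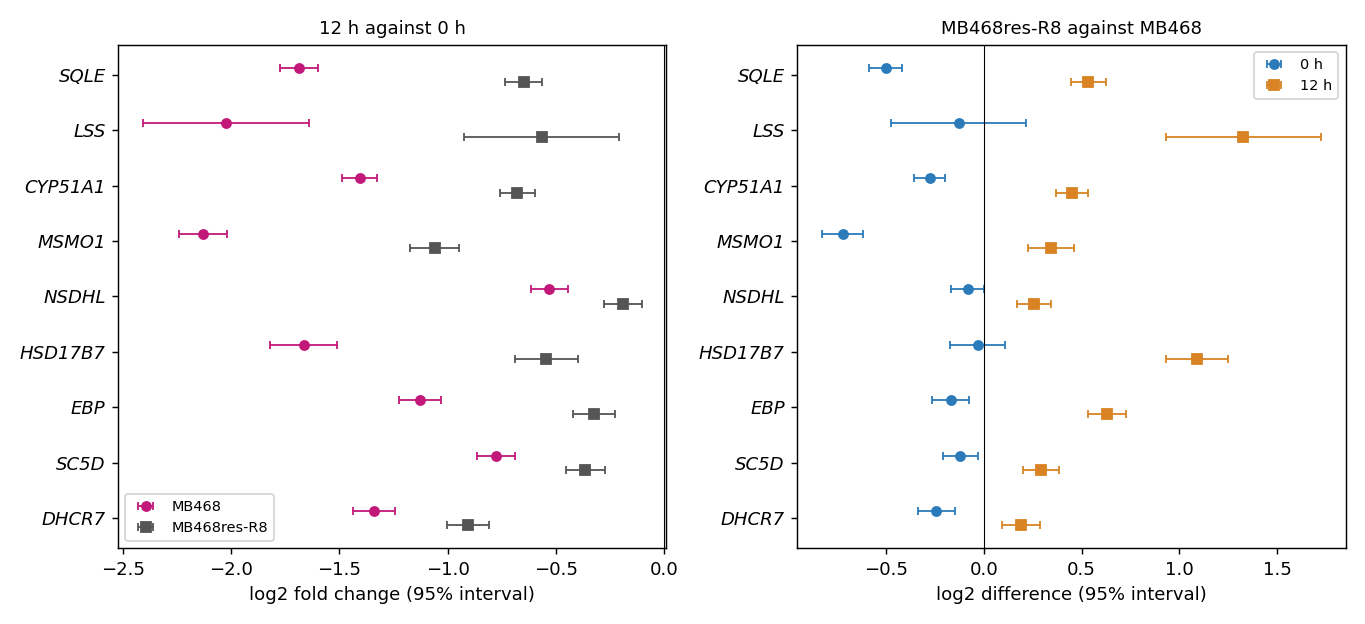
Left, log2 fold change at 12 h against 0 h in MB468 (magenta circles) and MB468res-R8 (gray squares); right, log2 difference of MB468res-R8 against MB468 at 0 h (blue circles) and 12 h (orange squares), with 95% intervals from edgeR (n = 3 a group). On the left every point lies below 0 and those of MB468 lie further left. On the right the 0 h points lie at or below 0 and the 12 h points above it.

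In the first 2 h the enzymes changed little, and in both directions. At 0.5 h the group means lay between 88.1% and 110.5% of 0 h in MB468 and between 84.1% and 120.5% in MB468res-R8, and at 2 h between 85.7% and 117.8% and between 89.4% and 117.3%. At 0.5 h in MB468, 1 enzyme was called higher and 2 lower, against 17.6% and 16.4% of all genes. In MB468res-R8, 2 were called higher and 2 lower, against 17.4% and 16.3%.

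CYP51A1 and DHCR7 were the enzymes called lower at 0.5 h in both lines. CYP51A1 had 4917, 4963 and 4773 normalized counts in the MB468 libraries at 0.5 h, a log2 fold change of -0.12 (SE 0.0391, adjusted p = 0.0119, edgeR). It had 3846, 3674 and 3566 in MB468res-R8, a log2 fold change of -0.25 (SE 0.0396, adjusted p = 2.23e-06, edgeR). In each line these lay below all 3 libraries at 0 h, and by 2 h the gene was back at 5087, 5244 and 5449 and 4272, 4435 and 4272, with neither line called (-0.02 and -0.02). DHCR7 had 17048, 16612 and 19231 at 0.5 h in MB468 (-0.18 (SE 0.0474, adjusted p = 0.00213, edgeR)) and 15328, 15109 and 15503 in MB468res-R8 (-0.14 (SE 0.0475, adjusted p = 0.0163, edgeR)). Its groups did not overlap with 0 h in either line. The call in MB468res-R8 was lost without MB468res-R8 at 0 h replicate 2 (adjusted p = 0.118, edgeR) or 0.5 h replicate 2 (0.0559).

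SQLE was called higher at 0.5 h in MB468, where the libraries had 10787, 10987 and 10692 normalized counts and all exceeded those at 0 h (0.14 (SE 0.0419, adjusted p = 0.00597, edgeR)). With spike-in totals as library sizes this value turned to -0.07 (adjusted p = 0.711, edgeR), with the median of all genes at -0.20. In MB468res-R8 SQLE had 7052, 7240.3 and 7659.5 and was not called (0.08, 95% interval -0.01 to 0.17). The responses of the lines were not called different for SQLE at 0.5 h (-0.06, -0.18 to 0.06).

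MSMO1 was the enzyme with a called difference between the lines in the early response, a call that rested on single libraries. At 0.5 h it had 2723, 2604 and 2768 normalized counts in MB468res-R8, all above the 0 h libraries (0.27 (SE 0.0523, adjusted p = 5.52e-05, edgeR)), and 3777, 3636 and 3661 in MB468, where they overlapped those at 0 h (0.00, 95% interval -0.10 to 0.10). The contrast of the responses was 0.27 (SE 0.0727, 95% interval 0.12 to 0.42, adjusted p = 0.0283, edgeR), and MSMO1 was the single enzyme of the 9 called at 0.5 h (1.2% of all genes were called in this direction). The call was lost without MB468 at 0 h replicate 2 or 3, MB468res-R8 at 0 h replicate 1 or MB468res-R8 at 0.5 h replicate 1 (adjusted p from 0.0649 to 0.0967, edgeR), and with spike-in totals (0.53, adjusted p = 0.213, edgeR, when the median of all genes is 0.26). HSD17B7 was also called higher at 0.5 h in MB468res-R8, with 589, 621 and 690.2 normalized counts (0.18 (SE 0.0693, adjusted p = 0.0366, edgeR)), a call that was lost without any of the 3 libraries at 0 h or without replicate 2 or 3 at 0.5 h (adjusted p from 0.0617 to 0.247, edgeR). With spike-in totals as library sizes 0 of the 9 were called at 0.5 h in MB468res-R8.

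At 2 h, MSMO1 and NSDHL were called lower in MB468 (7.47% of all genes) and 0 were called higher (8.88%). MSMO1 had 2896, 3371 and 3228 normalized counts, all below the 0 h libraries (-0.22 (SE 0.0515, adjusted p = 0.00131, edgeR)), a call that was lost with a spike-in factor as a covariate (-0.18, adjusted p = 0.0606, edgeR). NSDHL had 2562, 2421 and 2565 (-0.13 (SE 0.0432, adjusted p = 0.0319, edgeR)), but was not called without MB468 at 2 h replicate 2, the library with high RN7SK (adjusted p = 0.155, edgeR), nor without MB468 at 0 h replicate 1 (0.128) or 2 (0.177). It was also not called with that covariate (0.198), without the low-count filter (0.0625) or from the groups compared alone (0.0728). DHCR7 was called lower under these same 3 settings (adjusted p from 0.00372 to 0.0330, edgeR) and without MB468 at 2 h replicate 1 (0.0474). Under spike-in scaling 8 of the 9 were called lower in MB468 at 2 h, when all genes had a median of -0.42. In MB468res-R8, edgeR called 0 of the 9 at 2 h, as did DESeq2, against 4.37% of all genes. An unadjusted p under 0.05 (edgeR) was found for 2026 of all 14741 genes and for 2 of the 9. Those 2 enzymes were NSDHL (-0.09) and HSD17B7 (-0.15), named after their values were seen. The contrast of the lines at 2 h also called 0 of the 9 by edgeR and by DESeq2 (5.07% of all genes). Here an unadjusted p under 0.05 (edgeR) was found for 2338 of all 14741 genes and for 2 of the 9. Those 2 were MSMO1 (0.22, 95% interval 0.07 to 0.37) and HSD17B7 (-0.26, -0.46 to -0.05). MSMO1 was called in this contrast without MB468 at 0 h replicate 1, MB468 at 2 h replicate 2 or MB468res-R8 at 2 h replicate 3 (adjusted p from 0.0358 to 0.0445, edgeR). LSS spread most at this time, with 1176, 851 and 1214 in MB468 and 1295, 885 and 771 in MB468res-R8, and its 95% intervals (-0.10 to 0.60 and -0.11 to 0.58) were the widest of the 9. Without the low-count filter LSS was called higher at 2 h in both lines (adjusted p = 0.00489 and 0.0217, edgeR).

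**Figure D3:**
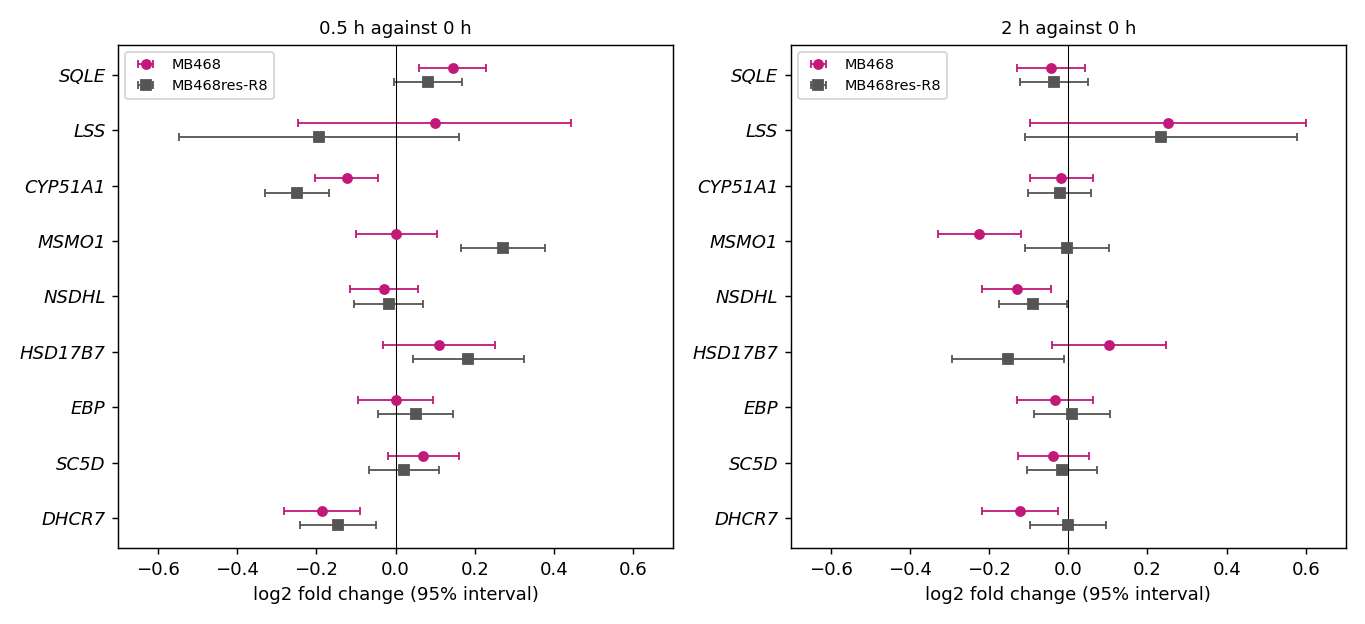
Log2 fold change of the 9 enzymes at 0.5 h (left) and 2 h (right) against 0 h, with 95% intervals from edgeR, in MB468 (magenta circles) and MB468res-R8 (gray squares). The values run from -0.25 for CYP51A1 to 0.27 for MSMO1, both at 0.5 h in MB468res-R8, most intervals cross 0, and those of LSS are the widest.

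Levels were compared between the enzymes per length, as RPKM from the TMM-scaled counts and the length of the canonical GENCODE transcript (mean ± SD, n = 3). The last enzyme was the most abundant: DHCR7 had 335 ± 2.04 RPKM in MB468 at 0 h, followed by SQLE (145 ± 2.61) and EBP (125 ± 1.71). CYP51A1 (74.2 ± 2.66), MSMO1 (72.9 ± 3.70) and NSDHL (66.0 ± 3.52) formed a middle level, in which CYP51A1 and MSMO1 overlapped. SC5D (23.7 ± 0.346), HSD17B7 (16.3 ± 0.130) and LSS (8.26 ± 1.02) were the lowest. In MB468res-R8 at 0 h the order began with DHCR7 (283 ± 13.9), EBP (111 ± 3.02) and SQLE (103 ± 4.37), and went on with NSDHL (62.5 ± 2.71) and CYP51A1 (61.2 ± 0.280), which overlapped, and MSMO1 (44.2 ± 1.77). SC5D, HSD17B7 and LSS closed it as in MB468.

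At 12 h the top and the bottom of the order were unchanged in both lines. DHCR7 had 132 ± 6.32 RPKM in MB468 and 151 ± 6.46 in MB468res-R8, and LSS 2.03 ± 0.119 and 5.08 ± 0.104. SQLE moved from the second place to the fourth in MB468 (45.2 ± 2.43), overlapping NSDHL (45.8 ± 1.35), and kept its place in MB468res-R8 (65.4 ± 2.35), with all neighbors in the order apart. Over the 9 enzymes the normalized counts summed to 49974 ± 251 at 0 h and 19753 ± 515 at 12 h in MB468, and to 40729 ± 1271 and 25400 ± 293 in MB468res-R8 (mean ± SD, n = 3). The order depends on the length used: with the union of all annotated exons in place of the canonical transcript, 5 of the 9 kept their rank in MB468 at 0 h, and HSD17B7 was the lowest there in place of LSS.

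**Figure D4:**
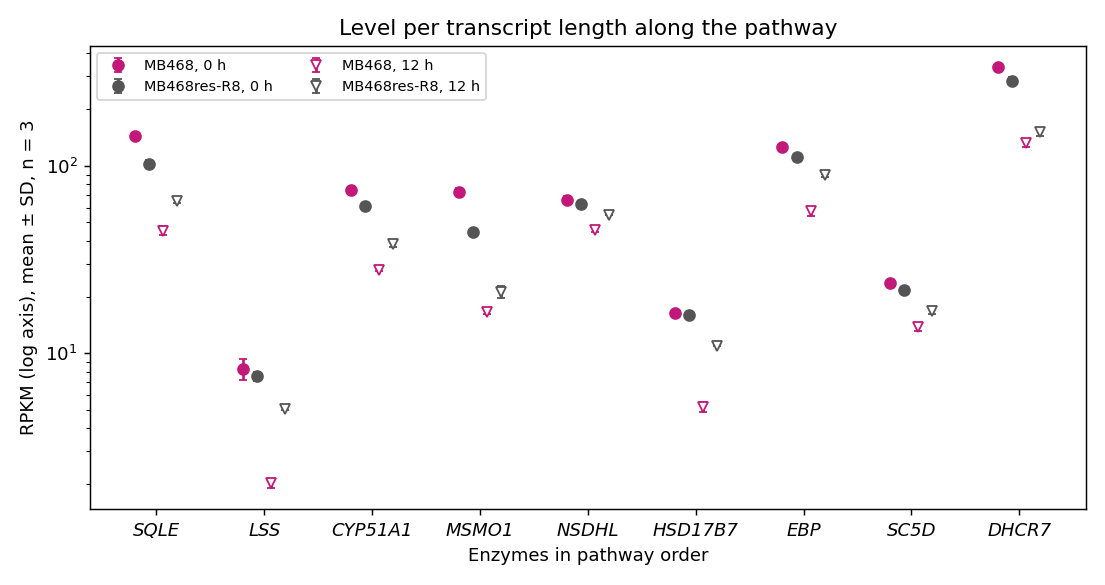
RPKM of the 9 enzymes in pathway order on a log axis, as mean ± SD of 3 libraries (bars smaller than the symbol are hidden), for MB468 (magenta) and MB468res-R8 (gray) at 0 h (filled circles) and 12 h (open triangles). DHCR7 is highest and LSS lowest in the 4 groups, and the open magenta triangle is the lowest symbol for each enzyme.

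The genes around these steps were followed in hand-written lists. Of the 9 early mevalonate genes, which make squalene from acetyl-CoA, 9 were called lower at 12 h in each line (34.7% of all genes in MB468, 31.1% in MB468res-R8), with a median log2 fold change of -1.84 in MB468 and -0.82 in MB468res-R8 (all genes 0.01 and -0.02). HMGCS1, which makes HMG-CoA, had the largest fall in MB468 (-2.62, against -1.13 in MB468res-R8). MVD, the decarboxylase that makes isopentenyl diphosphate, had -2.08 and -0.97, and PMVK, a mevalonate pathway kinase, had the smallest fall in MB468 (-0.28 and -0.22). The medians of the 9 squalene to cholesterol enzymes were -1.41 and -0.57. The contrast between the lines was called for 8 of the 9 early genes, all higher in MB468res-R8 (26.2% of all genes; median 1.02 against 0.80 for the enzymes after squalene), with PMVK (0.07) not called. They too were mostly lower in MB468res-R8 at 0 h (7 of 9, with 1 higher, against 27.1% and 26.4% of all genes) and higher at 12 h (9 of 9, against 33.9%).

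A further 4 genes act after squalene, as alternative or accessory steps. All were called lower at 12 h in MB468 (median -0.90), against 34.7% of all genes. TM7SF2 (-1.49), a sterol reductase, fell most, and ERG28, a scaffold of the demethylation complex, had -0.67. LBR (-0.34), a nuclear envelope protein that shares its reductase activity with TM7SF2, fell in MB468 and rose in MB468res-R8 (0.23, adjusted p = 0.000108, edgeR). TM7SF2 (-0.53) and ERG28 (-0.43) fell in MB468res-R8 too, and the contrast of the lines was called higher for all 4 (26.2% of all genes). The electron and haem partners of these enzymes (POR, CYB5A, CYB5B, CYB5R3 and PGRMC1) were called lower for 5 of 5 in MB468 (34.7% of all genes), with a median of -0.43. In MB468res-R8, 3 of these 5 were called lower (31.1% of all genes), with a median of -0.18. PGRMC1, which binds CYP51A1, had the largest fall of them in MB468 (-0.71), while its value in MB468res-R8 was 0.08 (adjusted p = 0.0849, edgeR).

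The genes of SREBP control and further SREBP targets did not follow the lines in the same manner. At 12 h 7 of 11 were called lower and 3 higher in MB468 (median -0.72), and 8 lower and 0 higher in MB468res-R8 (median -0.73). Of all genes, 34.7% were called lower and 36.1% higher in MB468, and 31.1% lower and 30.2% higher in MB468res-R8. INSIG1, which retains SREBP in the endoplasmic reticulum and is itself a target, fell most, with log2 fold changes of -3.37 in MB468 and -2.31 in MB468res-R8. STARD4, a sterol carrier, fell in both (-1.47 and -0.96), as did SREBF2, the gene of SREBP2 (-0.72 and -0.86). For SREBF2 the contrast of the lines was not called (-0.14, adjusted p = 0.0640, edgeR) and had the opposite sign to that of the 9 enzymes. SCAP, the escort of SREBP, rose in MB468 (0.34) and fell in MB468res-R8 (-0.18). Over the list the contrast was called higher for 5 and lower for 3 of 11, against 26.2% and 30.3% of all genes.

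Of 9 genes of cholesterol handling and LXR targets, 6 were called lower and 1 higher at 12 h in MB468 (median -0.44), and 8 lower and 1 higher in MB468res-R8 (median -0.53), against the same shares of all genes (34.7% and 36.1%, and 31.1% and 30.2%). ABCG1 and ABCA1, sterol exporters that LXR raises when sterols accumulate, went with the lines in the reverse order to the enzymes. ABCG1 fell in MB468 (-0.94) and in MB468res-R8 (-2.63). ABCA1 had 0.40 in MB468 (adjusted p = 0.210, edgeR) and fell in MB468res-R8 (-1.08). Its normalized counts were low, with means of 27.1 at 0 h and 35.2 at 12 h in MB468. In MB468res-R8 these means were 21.2 and 9.93. SOAT1, which esterifies cholesterol, fell in both (-0.90 and -0.22), while MYLIP, a ubiquitin ligase induced by LXR, rose (0.57 and 0.34).

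**Figure D5:**
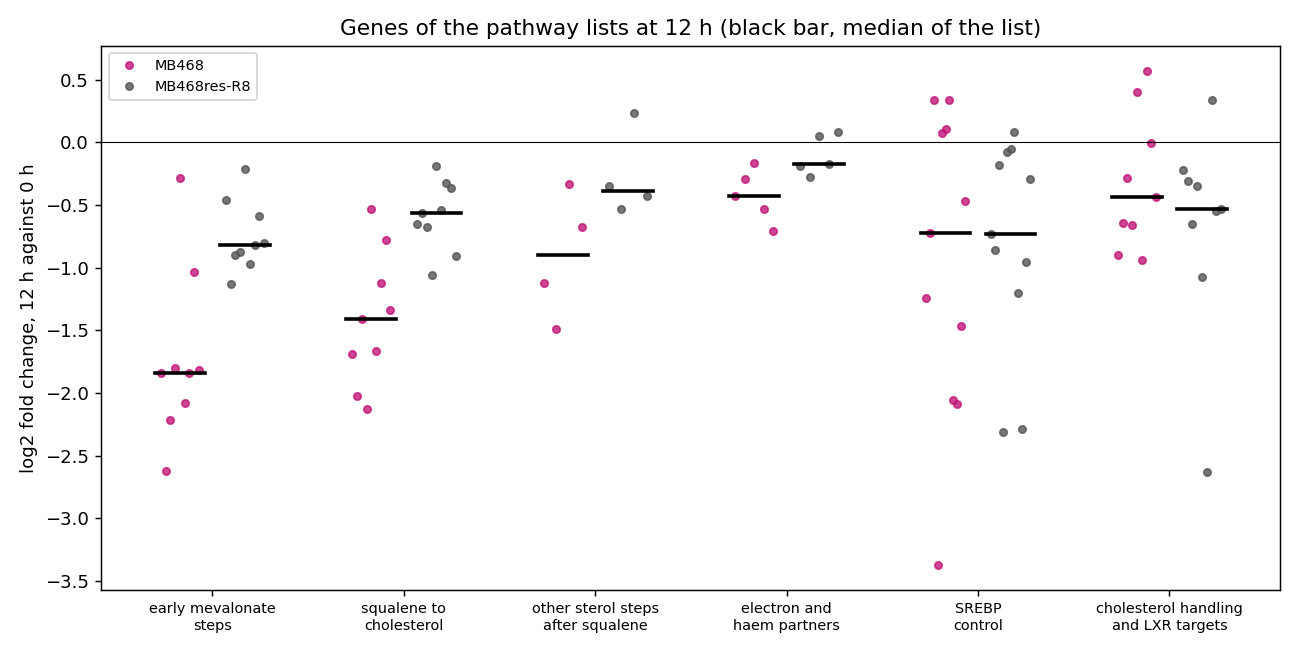
Log2 fold change at 12 h against 0 h (edgeR) of each gene of the 6 lists, a point for each gene, MB468 in magenta and MB468res-R8 in gray, with the list's median as a black bar. The medians of the early mevalonate and the squalene to cholesterol genes lie lower in MB468 (-1.84 and -1.41) than in MB468res-R8 (-0.82 and -0.57), and those of the SREBP control genes lie side by side (-0.72 and -0.73).

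Over the 8 group means, the mean standardized log2 level of the 9 enzymes was most like MVK (r = 0.997), F8 (0.996), TIMELESS (0.996), FAM213A (0.995), ULK3 (0.995), ANXA6 (0.994), FDFT1 (0.994) and FASN (0.993) among 9866 other genes whose log2 CPM averaged 3 or more. MVK and FDFT1 belong to the early mevalonate steps and FASN is fatty acid synthase, while TIMELESS is a replication fork protein, and none of the other 4 encodes a sterol enzyme. Each of the 9 against the mean of the other 8 had an r of 0.949 (LSS) to 0.995 (SC5D). These are descriptions over 8 points that share libraries and the 12 h fall, with no test.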

How the data were processed

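Poly(A) RNA with added ERCC spike-ins was sequenced with single-end reads of 100 bp. The authors used HISAT2 2.1.0 to align them to a GRCh38/hg38 reference extended by the spike-ins, and featureCounts (Subread 1.5.3) to count reads per gene. Their deposited raw counts (26645 gene entries, 92 spike-ins) were used here. The authors' normalized table and their DESeq2 table of fold changes and p-values were not used.

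The tests were run with edgeR 4.0.16 under R 4.3.3 (filterByExpr, minimum count 10, minimum total 15, TMM, quasi-likelihood fit with robust dispersions, a mean for each of 8 groups), without spike-ins, and adjusted by Benjamini-Hochberg over 14741 genes. The study's methods name DESeq2 after RUVSeq without settings, so DESeq2 1.42.0 and a spike-in factor were alternatives. The code was tested on simulated data. The 9 enzymes and the gene lists were chosen with earlier results of these data known. Named genes are the 9 enzymes, the genes of the lists and the 8 genes with the most similar pattern. Values of some list members are not reported here by name. Annotation is GENCODE on GRCh38 and promoters are from RefSeq GRCh38.p14, whose releases need not be the authors'. Intervals are 95% and cover the spread between libraries. Replicate numbers come from the library names. Same-numbered libraries did not deviate together in any comparison in all 3 pairs (6391 genes), so the fit has no replicate block. No pair of libraries in a group agreed within counting noise (chi-square per degree of freedom of 2.28 to 8.42). Alternatives were DESeq2's size factors and Wald test, spike-in totals or a spike-in factor, other count filters, the replicate block, only the groups compared, an adjusted p of 0.01, other gene lengths (the union of exons being added after the data were seen) and leaving out each library in turn.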

Additional observations from a re-analysis of the deposited data

Results flagged for a closer look

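The response at 12 h differed between the lines for 9 of 9 enzymes by the contrast of the responses, MB468res-R8 minus MB468, in edgeR's quasi-likelihood test. The log2 values were 1.04 for SQLE, 1.46 for LSS, 0.73 for CYP51A1, 1.07 for MSMO1, 0.34 for NSDHL, 1.12 for HSD17B7, 0.80 for EBP, 0.41 for SC5D and 0.43 for DHCR7. In each case RNA fell in both lines and fell less in MB468res-R8. At 0.5 h the responses differed for MSMO1 alone among the 9, by 0.27 (adjusted p = 0.0283, edgeR), a call that was lost without any 1 of 4 libraries (adjusted p from 0.0649 to 0.0967, edgeR) and with spike-in totals as library sizes (0.213).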

How the results depend on the processing

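The calls at 12 h were the most stable. All 9 enzymes were called lower in MB468 and higher in the contrast of the lines under each alternative of normalization, filter, test and fit and without each library in turn, and 9 of 9 were called lower in MB468res-R8 except with spike-in totals as library sizes, where it was 8.

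With spike-in totals, 8 enzymes were called in MB468 at 2 h in place of 2, 0 in MB468res-R8 at 0.5 h in place of 4, 0 for the contrast of the lines at 0.5 h in place of 1 and 1 at 2 h in place of 0. SQLE in MB468 at 0.5 h reversed to -0.072 and HSD17B7 in MB468 at 2 h to -0.31. That scaling moves the median of all genes, to -0.20 at 0.5 h, -0.42 at 2 h and -0.23 at 12 h in MB468, and to 0.26, 0.38 and 0.20 in the contrasts. Under it 9 enzymes in place of 6 were called between the lines at 0 h. With a spike-in factor as a covariate 1 was called in MB468 at 2 h, DHCR7 (-0.22, adjusted p = 0.00372, edgeR), while MSMO1 (0.0606) and NSDHL (0.198) lost the call. Without the low-count filter, 1 was called in MB468res-R8 at 2 h and 1 in the contrast at 2 h. At an adjusted p of 0.01, 1 was called in MB468 at 2 h, 2 in MB468res-R8 at 0.5 h and 0 in the contrast at 0.5 h. Exon union lengths left 5 of 9 ranks in MB468 at 0 h. The cause was not tested in these cases.

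With each library left out in turn, the number called ran from 1 to 3 in MB468 at 2 h, from 2 to 4 in MB468res-R8 at 0.5 h, from 5 to 7 between the lines at 0 h, and from 0 to 1 in the contrast at 0.5 h and at 2 h. HSD17B7 in MB468res-R8 at 0.5 h was not called by DESeq2 (0.17). With the replicate number as a block, 3, 2 and 9 enzymes were called in MB468 and 4, 0 and 9 in MB468res-R8 at 0.5, 2 and 12 h, and the block changed none of the 99 calls. LSS had the widest intervals, although HSD17B7 had fewer counts, and the cause was not tested.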
